A study of Rattus norvegicus with 4 samples.

Results

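The comparison set the mammary gland of parous Lewis rats beside that of age-matched virgin (AMV) Lewis rats, neither given a carcinogen. Its members were the arrays titled parous and AMV, 2 of the 4 arrays in the series, each hybridised with RNA of 5 rats. Parous rats delivered a litter at 87 days and nursed it for 21 days. The litters were removed at 108 days, and 28 days of involution followed before the glands were taken at 136 days. AMV rats had no pregnancy and were also examined at 136 days. The other pair, parous+MNU and AMV+MNU, consisted of the same kinds of rats given N-methyl-N-nitrosourea (MNU), an alkylating mammary carcinogen, at 50 mg/kg and examined 3 weeks later at 157 days. Whether the RNA of the 5 rats was pooled in equal amounts is not given in the sources used here. Of 6187 genes kept on the table, 5994 had a value on both untreated arrays.

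During pregnancy the mammary epithelium expands into lobules of alveoli, which make milk under prolactin and the transcription factor STAT5. When suckling ends, most of that epithelium dies, macrophages and other cells clear it, and adipocytes refill the gland. A full cycle of this kind is known in rats, mice and women to leave lasting differences in the gland, and early parity protects rats against MNU-induced mammary tumours.

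Intensities are given in normalized units, the fluorescence scale of the authors' table after the arrays were put on 1 common distribution. Differences are log2 of parous over AMV, so that 1 is 2-fold. A floor of 178 units was set beneath which levels were not ordered, and features were kept if at least 1 array exceeded 216 units. With 1 array a side, a difference within the untreated pair has no replicate check and no p-value. The MNU pair shares no array with it, so limma was fitted to both pairs at once with parity and MNU as terms, on the 5587 genes with all 4 values. Its estimate is a mean over both pairs, it leaves 1 residual degree of freedom a gene, and its median standard error was 0.112. The verbs rose and fell are used below only of genes that passed this limma test at an adjusted p of 0.05. The untreated pair is part of that fit, so the test is no separate check of it.

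The untreated arrays had median deposited intensities of 226 units in parous and 238 in AMV, with 421 and 390 blanks among 20500 features. The MNU arrays had medians of 179 and 221 units and 795 and 666 blanks in parous+MNU and AMV+MNU. Markers of the gland's epithelium, fat and stroma were measured on both untreated arrays. Of the luminal markers, the keratin Krt19 differed by 0.21, Epcam by -0.01 and the cadherin Cdh1 by -0.29. The myoepithelial markers Krt5, Krt14 and Oxtr differed by 0.24, -0.03 and -0.04. Of the adipocyte markers, the fatty acid carrier Fabp4 differed by -0.54, the leptin gene Lep by -0.09 and the lipase Lipe by -0.03. The fibroblast collagens Col1a2 and Col3a1 differed by 0.10 and -0.13 and the proteoglycan Lum by 0.09. Of 5 defining B cell markers none was measured on both arrays. The longer B cell list had 3 measured genes, of which the chemokine receptor Cxcr5 differed by -0.02, the IgE receptor Fcer2 by less than 0.01 and the invariant chain Cd74, which other antigen-presenting cells also make, by -0.39. In RNA of a whole gland, fewer cells of a type and less RNA per cell cannot be told apart.

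Most genes read nearly alike in parous and AMV glands. The median difference was -0.01, 87.1% of the 5994 genes lay within 1.2-fold and 98.3% within 1.5-fold, and the robust SD over genes was 0.156. At least 2-fold differences were found for 27 genes, 0.45% of those measured, with 19 higher in the parous gland (0.317%) and 8 lower (0.133%). At 1.5-fold the numbers were 74 higher (1.23%) and 27 lower (0.45%), 1.69% in all. Of the 5994 genes, 47.0% were above 0 and 52.7% below. Limma over both pairs passed 42 genes as higher (0.752% of 5587) and 27 as lower (0.483%). That count rests on the filter, since limma passed 0 genes without it, with 738 at an unadjusted p under 0.05, and 127 with a stricter one. The higher share of the limma calls was 60.9%, against 49.1% with median centring and 27.1% on intensities as deposited. That of the 2-fold genes was 70.4%, against 82.6% with quantile normalization over all values. Just inside the 2-fold threshold stood Trem2 at 1.04 and Ltbp2 at -1.01, and just outside stood Kif3b at 0.98 and Gjb2 at 0.94.

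**Figure D1:**
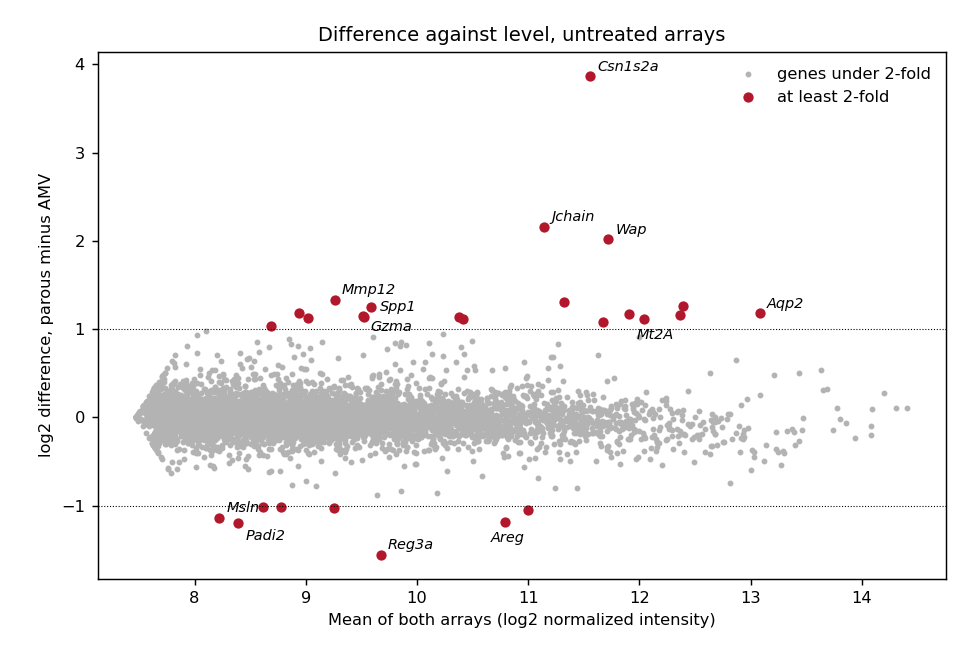
Each point is 1 gene, with the mean log2 normalized intensity of both untreated arrays across and the log2 difference, parous minus AMV, upwards, and dotted lines at 2-fold. The 27 genes past 2-fold (red) span most of the range of levels, and Csn1s2a at 3.87 stands farthest from the rest.

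The greatest difference of all was that of a milk protein gene, Csn1s2a. Of 18 milk protein genes listed, 6 were measured on both untreated arrays. All 6 were above 0 against 47.0% of all genes, with a median of 0.81 against -0.01. Of the 5 tested 2 rose, against 0.752% of all genes tested. Of the 6 measured, Csn1s2a, Wap and Spp1 are among genes long reported to stay high after parity in rodents. Their direction is therefore not independent evidence. Csn1s2a encodes an alpha-S2 casein, 1 of the calcium-binding proteins of milk. It read 11506 units in parous, 787 in AMV, 7960 in parous+MNU and 2188 in AMV+MNU. Both parous arrays lay far above both AMV arrays, which themselves differed. The parous gland was 14.6-fold higher without MNU, a difference of 3.87, and 1.86 higher after MNU, and limma gave a mean of 2.87 ± 0.31 (SE), adjusted p = 0.000352.

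Wap encodes whey acidic protein, the main whey protein of rodent milk. It stood at 6782 units in parous, 1674 in AMV, 4359 in parous+MNU and 2262 in AMV+MNU. As for the casein, the highest level was in the untreated parous gland and the lowest in the untreated AMV gland. The untreated difference was 2.02 and that after MNU 0.95 (limma mean 1.48 ± 0.19, adjusted p = 0.00154). Spp1, osteopontin, is a phosphoprotein secreted into milk and also made by macrophages. It read 1185 units in parous, 498 in AMV and 627 in parous+MNU and was blank in AMV+MNU, which left a difference of 1.25 that could not be tested. The remaining members were closer together. Ceruloplasmin, the copper-carrying protein Cp, differed by 0.37, the milk fat globule protein Mfge8 by 0.18 and the amino acid oxidase Lao1 by 0.14.

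The other caseins could not be read in the same way. Csn1s1, Csn3 and the lactose synthase subunit Lalba were blank on both untreated arrays. The beta-casein gene Csn2 was blank on both parous arrays and read 1090 units in AMV and 1421 in AMV+MNU. Glycam1, a mucin of milk and of lymph node vessels, was likewise blank on both parous arrays, with 1148 units in AMV and 1327 in AMV+MNU. Lbp, the lipopolysaccharide-binding protein, showed the same pattern at 5952 and 3918 units. What a blank stands for is not given in the sources used here, so no direction was read for these genes.

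The start of Csn1s2a is shown because this gene differed most. STAT5 binds sites of the form TTCNNNGAA, and both strands of 250 bases before and 50 bases after the start of each gene were searched for these letters in RefSeq sequence of the rat build GRCr8. The window of Csn1s2a, chr14:20574422-20574721 on the minus strand, holds 1 match, in capitals, which begins 102 bases before the start. The same letters occur in 8.87% of 33469 rat gene starts, and the windows of Wap and Spp1 have none. A match is a run of letters, not a shown binding site.
Csn1s2a: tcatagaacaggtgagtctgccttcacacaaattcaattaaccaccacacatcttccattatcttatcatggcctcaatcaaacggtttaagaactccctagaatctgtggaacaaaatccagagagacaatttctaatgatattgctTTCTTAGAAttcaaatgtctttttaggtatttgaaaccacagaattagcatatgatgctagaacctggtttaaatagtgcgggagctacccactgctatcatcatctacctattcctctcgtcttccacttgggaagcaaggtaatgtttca

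Among genes of the apical membrane and the milk fat globule, 2 of the 9 tested rose (against 0.752% of all genes tested). Of 11 measured members 7 were above 0, against 47.0% of all genes, and the median was 0.18. Muc1 encodes the mucin that coats the luminal face of the epithelium. It read 377 units in parous, 241 in AMV, 372 in parous+MNU and 257 in AMV+MNU, so that the parous arrays nearly coincided and lay above both AMV arrays (untreated difference 0.64, limma mean 0.59 ± 0.11, adjusted p = 0.0199). Xdh encodes xanthine oxidoreductase, which links lipid droplets to the apical membrane during milk fat secretion. Its levels were 2806, 1908, 2398 and 1572 units in parous, AMV, parous+MNU and AMV+MNU, a difference of 0.56 in the untreated pair and 0.61 after MNU (limma adjusted p = 0.02). Members below the limma threshold were the fatty acid carrier Fabp3 at 0.50, the droplet coat gene Plin2 at 0.39 and the water channel Aqp5 at 0.35. The list of lactose synthesis and calcium transport genes had a median of -0.01 over 8 members, and none passed.

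Jchain, which encodes the joining chain that links IgA and IgM into polymers and is made by plasma cells, was next to Csn1s2a in size. It read 4778 units in parous, 1069 in AMV, 3919 in parous+MNU and 1090 in AMV+MNU. The AMV arrays were nearly equal and the parous arrays were both several-fold above them. The differences were 2.16 without MNU and 1.85 after it, and limma gave 2.0 ± 0.12, adjusted p = 3.63e-06. The other plasma cell genes measured did not share that size. Derl3, a gene of protein disposal in the endoplasmic reticulum, differed by 0.32, with -0.39 at another feature of the same gene. Sdc1, a plasma cell and epithelial surface proteoglycan, differed by -0.17. Immunoglobulin heavy and light chain genes of the list had no named feature.

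Cytotoxic lymphocyte genes had a median of 0.41 over 7 measured of 16 listed members, 5 of them above 0 against 47.0% of all genes. Gzma encodes granzyme A, a protease of the killing granules of T and NK cells. Its levels were 1092 units in parous, 492 in AMV, 1146 in parous+MNU and 569 in AMV+MNU. Both parous arrays were above both AMV arrays by about the same amount, 1.15 without MNU and 1.01 after it (limma mean 1.08 ± 0.11, adjusted p = 0.000319). Gzmc, another granzyme, also rose, with 0.58 and 0.56 in the pairs (limma adjusted p = 0.023). The NK receptor chain Klrd1 differed by 0.64 with its AMV level at the floor, and the chemokine Ccl5 by 0.41. Both missed the limma threshold at adjusted p = 0.0727 and 0.221. Klrd1 and Ccl5 exceeded the filter of 216 units on the parous arrays alone. Their direction follows from the filter and is no evidence, and the list median of 0.41 is the value of Ccl5. T cell genes did not stand with the cytotoxic genes. Their median was 0.07 over 7 members, with the receptor chains Cd3d, Cd3e and Cd3g at 0.07, -0.19 and 0.20, and none passed. Itga4, the integrin subunit by which lymphocytes and monocytes enter tissues, read 740 units in parous, 326 in AMV, 704 in parous+MNU and 482 in AMV+MNU. It rose with 1.18 and 0.55 in the pairs (limma adjusted p = 0.00881).

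Genes of tissue-remodelling macrophages included 4 of the 19 that were at least 2-fold higher. They were Mmp12, Gpnmb, Trem2 and Spp1, and Spp1 was also counted among the milk protein genes. Over 13 measured members of the list the median was 0.31, and 9 were above 0 against 47.0% of all genes. Of the 10 tested 4 rose, against 0.752% of all genes tested. Mmp12, the elastase of macrophages, read 975 units in parous, 386 in AMV, 666 in parous+MNU and 416 in AMV+MNU. The untreated parous array was highest and the AMV arrays were close to each other (1.33 without MNU, 0.68 after it, limma mean 1.01 ± 0.14, adjusted p = 0.0038). A separate feature of Mmp12 differed by 1.06 and 0.66 in the pairs. Gpnmb, a membrane glycoprotein of lipid-laden macrophages, stood at 5784, 2564, 4510 and 2250 units in parous, AMV, parous+MNU and AMV+MNU. Its parity differences of 1.17 and 1.0 were alike in both pairs (limma mean 1.09 ± 0.11, adjusted p = 0.000319). Trem2, a receptor for lipids and cell debris, read 591 units in parous, 288 in AMV, 459 in parous+MNU and 293 in AMV+MNU (limma adjusted p = 0.00426). Lipa, the lysosomal acid lipase, rose with 0.83 and 0.57 in the pairs (limma adjusted p = 0.00881).

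Macrophage genes in general did not move with these. The general macrophage and myeloid list had a median of 0.05 over 11 members and none passed limma. Of its defining markers C1qb differed by -0.28 and Cd163 by 0.08. The lectin receptors Clec10a and Mrc1 differed by -0.47 and -0.39, and Cd14, the endotoxin coreceptor, by 0.69 (limma adjusted p = 0.118). Within the remodelling list the cathepsins Ctsk and Ctsl stood at -0.25 and -0.26 and Apoe at -0.13. The tartrate-resistant phosphatase Acp5 was at 0.47 without MNU and 0.02 after it.

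Mt1 and Mt2A encode metallothioneins, small proteins that bind zinc and copper, and both rose. Mt2A read 6195 units in parous, 2866 in AMV, 5295 in parous+MNU and 2959 in AMV+MNU. Mt1 read 1952, 1069, 1730 and 1296 units in the same order. For each gene both parous arrays lay above both AMV arrays, with a wider gap in Mt2A. The untreated differences were 1.11 for Mt2A and 0.87 for Mt1, those after MNU 0.84 and 0.42, and limma gave adjusted p = 0.000966 and 0.0275. The related Mt3 differed by 0.15. Mtf1, the zinc-sensing factor that drives metallothionein genes, read 277 units in parous and 187 in AMV, a difference of 0.57, against -0.10 after MNU (limma adjusted p = 0.67). Over the 8 measured genes of the list the untreated median was 0.30, with 7 above 0 against 47.0% of all genes. Among them Mtf1 and Mt3 exceeded the filter of 216 units on the untreated parous array alone, so their untreated direction follows from the filter. In the MNU pair the median of the 8 genes was -0.09, with 3 above 0 against 47.1% of all genes. Slc30a4, a zinc exporter, stood at 0.44 without MNU and -0.30 after it.

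The starts of both metallothionein genes are shown because the genes rose together and lie close to each other on chromosome 19. Mtf1 protein binds the metal response element, whose core is TGCACNC or TGCGCNC. On both strands the Mt1 window, chr19:10832926-10833225 on the minus strand of GRCr8, holds 6 matches and the Mt2A window, chr19:10838659-10838958 on the minus strand, holds 4, all in capitals. In each the match nearest the start begins 55 bases before it. At least 1 match occurs in 24.2% of the 33469 gene starts in RefSeq, so the core alone is common.
Mt1: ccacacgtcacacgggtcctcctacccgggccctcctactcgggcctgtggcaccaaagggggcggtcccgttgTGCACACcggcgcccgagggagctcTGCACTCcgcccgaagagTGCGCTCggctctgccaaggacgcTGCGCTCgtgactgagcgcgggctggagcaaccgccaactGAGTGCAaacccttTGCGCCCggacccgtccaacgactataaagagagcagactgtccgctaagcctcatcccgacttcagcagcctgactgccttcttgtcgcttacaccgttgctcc
Mt2A: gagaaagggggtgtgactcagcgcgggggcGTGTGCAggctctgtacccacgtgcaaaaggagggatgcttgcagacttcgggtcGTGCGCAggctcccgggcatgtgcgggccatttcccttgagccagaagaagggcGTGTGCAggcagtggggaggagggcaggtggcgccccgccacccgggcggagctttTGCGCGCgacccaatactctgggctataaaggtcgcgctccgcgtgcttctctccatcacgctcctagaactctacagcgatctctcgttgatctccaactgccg

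The other genes at least 2-fold higher belonged to no single list. Aqp2, a water channel best known from the kidney collecting duct, read 13055 units in parous, 5748 in AMV, 10125 in parous+MNU and 7110 in AMV+MNU and rose (limma mean 0.85 ± 0.15, adjusted p = 0.0105). Its AMV arrays lay below its parous arrays, with the wider gap in untreated glands. Car2, carbonic anhydrase, read 1092, 495, 1005 and 596 units in parous, AMV, parous+MNU and AMV+MNU (limma adjusted p = 0.00168). Bcar3, an adaptor of integrin and growth factor signalling, read 764, 351, 814 and 296 units, and Hepacam2, an adhesion protein, 2012, 927, 2180 and 844 units. These last genes were the ones at least 2-fold higher whose difference was larger after MNU, at 1.46 for Bcar3 and 1.37 for Hepacam2 against 1.12 for each without it (limma adjusted p = 0.000169 for both). The difference between pairs was not tested, since each group has 1 array.

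Rnf5, a ubiquitin ligase of the endoplasmic reticulum, rose with 1.31 and 0.93 in the pairs (limma adjusted p = 0.000402). Lancl2, a lanthionine synthetase-like protein, rose with 1.14 and 0.70 (limma adjusted p = 0.00279). Porcn encodes the acyltransferase that Wnt ligands need for secretion. Its brightest feature read 8325 units in parous, 3480 in AMV, 7160 in parous+MNU and 4131 in AMV+MNU (limma adjusted p = 0.00144). Another feature of Porcn read 1254 in parous and 1276 in AMV, a difference of -0.02, so the features of this gene disagreed. Spmap2, a sperm-associated gene, differed by 1.16 without MNU and 0.25 after it, and missed the limma threshold at adjusted p = 0.0802. Pomp, a chaperone of proteasome assembly, read 4753 units in parous and 2244 in AMV but 4572 in AMV+MNU, with a blank in parous+MNU. Its array surroundings had a median difference of 0.48, and it is taken up with the positions below.

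**Figure D2:**
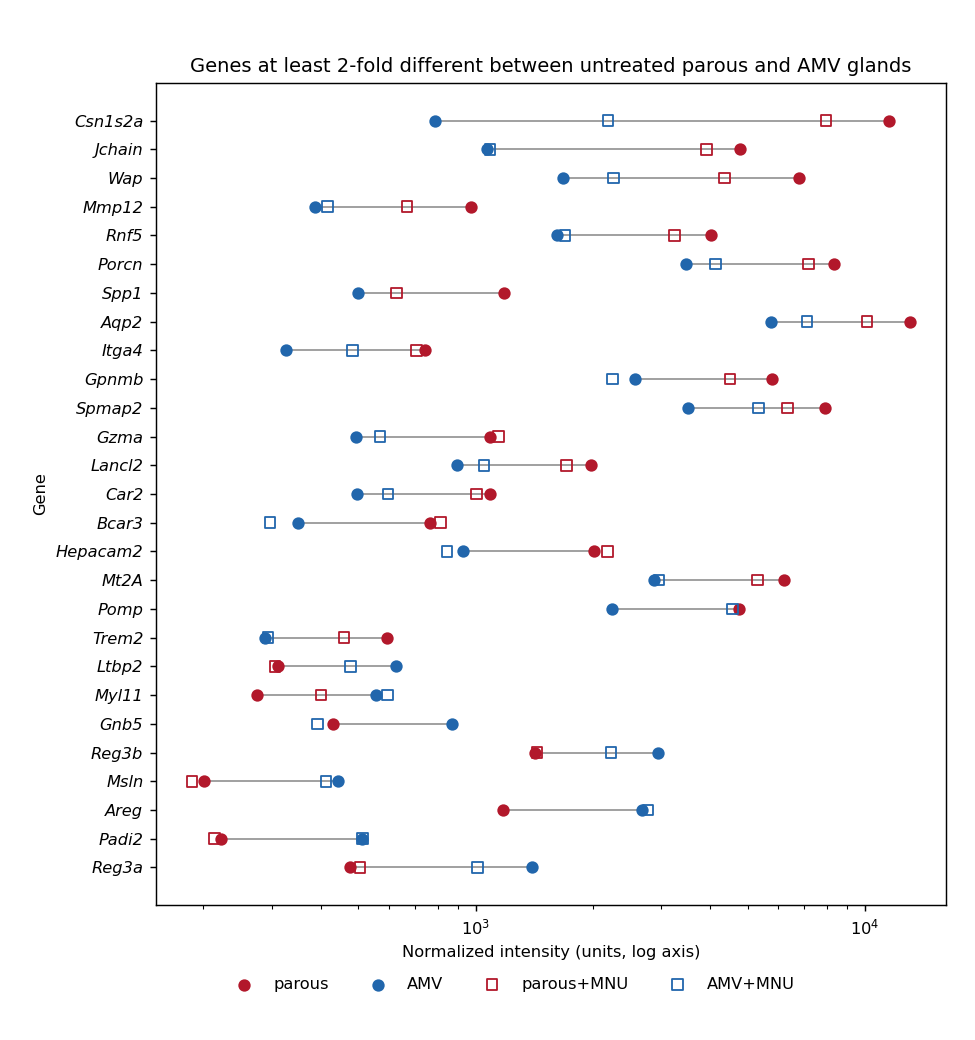
Normalized intensity on a log axis of the 27 genes at least 2-fold different, with 1 symbol for each array that had a value, circles for untreated and squares for MNU arrays, red for parous and blue for AMV, and a line joining the untreated pair. For Csn1s2a the parous arrays read 11506 and 7960 units and the AMV arrays 787 and 2188, while for Pomp the AMV+MNU array at 4572 units lies beside the parous array at 4753.

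Most of the measured antibacterial genes were lower in the parous gland. Of 15 listed, 5 were measured, 4 of them were below 0 against 52.7% of all genes, and the median was -0.80. Limma passed 3 as lower, against 0.483% of all genes tested. In the MNU pair 2 of the 5 were above 0, against 47.1% of all genes. Reg3a encodes a secreted lectin whose human counterpart kills Gram-positive bacteria. It read 476 units in parous, 1399 in AMV, 504 in parous+MNU and 1012 in AMV+MNU. The parous arrays were alike and both lay below the AMV arrays, with differences of -1.55 and -1.01 (limma mean -1.28 ± 0.13, adjusted p = 0.000344). Its relative Reg3b read 1418, 2937, 1440 and 2229 units in parous, AMV, parous+MNU and AMV+MNU, again with both parous arrays alike (limma mean -0.84 ± 0.12, adjusted p = 0.00465). As members of 1 gene family they may share signal on an array of this kind, which was not tested. Slpi, an inhibitor of neutrophil elastase with antibacterial action, fell with -0.80 and -0.57 in the pairs (limma adjusted p = 0.00917). Reg1a differed by -0.27 without MNU and 0.50 after it, and Lcn2, the iron-binding lipocalin, by 0.29 and 0.40.

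Areg encodes amphiregulin, the epidermal growth factor receptor ligand that carries the signal of oestrogen in duct growth. It read 1175 units in parous, 2672 in AMV and 2772 in AMV+MNU and was blank in parous+MNU. The untreated parous array was 2.27-fold below the AMV array, a difference of -1.19, and the missing value left no limma test. The receptors of oestrogen and progesterone, Esr1 and Pgr, and the progesterone targets Wnt4 and Tnfsf11 were dim or blank. The receptor Erbb2 differed by 0.05 and the receptor inhibitor Errfi1 by -0.18. The gene start of Areg is shown because it is a known target of cyclic AMP signalling. Its window, chr14:17265592-17265891 on the minus strand of GRCr8 in RefSeq, holds 1 match to TGACGTCA, which reads the same on both strands, 91 bases before the start, in capitals. Those letters occur in 1.83% of the 33469 gene starts.
Areg: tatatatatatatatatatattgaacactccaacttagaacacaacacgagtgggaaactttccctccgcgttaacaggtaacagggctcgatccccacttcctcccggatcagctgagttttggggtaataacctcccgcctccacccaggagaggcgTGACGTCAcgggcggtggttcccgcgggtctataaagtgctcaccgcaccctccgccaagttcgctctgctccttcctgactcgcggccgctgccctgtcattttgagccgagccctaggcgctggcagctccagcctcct

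Padi2 and Msln fell by like amounts in both pairs. Padi2 encodes an enzyme that turns arginine into citrulline in proteins, histones included. It read 222 units in parous, 509 in AMV, 214 in parous+MNU and 513 in AMV+MNU, so that each parity state nearly repeated its level (limma mean -1.23 ± 0.11, adjusted p = 0.000169). Msln encodes mesothelin, a surface protein of mesothelium. It read 201 units in parous, 443 in AMV, 187 in parous+MNU and 413 in AMV+MNU, with -1.14 in each pair (limma adjusted p = 0.000202). The parous levels of both genes lay close above the floor of 178 units, which limits how far the differences could go. Msln exceeded the filter of 216 units on the AMV arrays alone. Its direction therefore follows from the filter, and its limma result is no separate evidence of it. The other measured members of the mesothelium list, Upk1b, Calb2 and Krt19, differed by -0.13, -0.07 and 0.21.

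Igf2, the fetal insulin-like growth factor, read 999 units in parous, 1527 in AMV, 907 in parous+MNU and 1895 in AMV+MNU. Both parous arrays lay below both AMV arrays, by -0.61 and -1.06 (limma mean -0.84 ± 0.13, adjusted p = 0.00544). Among 10 measured imprinted growth genes, which are expressed from 1 parental copy, 7 were below 0 against 52.7% of all genes. The median was -0.24. Of the 10 tested 3 fell, against 0.483% of all genes tested. They were Igf2, its neighbour H19, a noncoding RNA (-0.39 and -1.06 in the pairs, limma adjusted p = 0.0278), and Mest (-0.85 and -0.44, adjusted p = 0.0232). Nnat read 586 units in parous and 1081 in AMV, a difference of -0.88, and -0.27 after MNU (limma adjusted p = 0.0849). Mest and Nnat also differed between the AMV arrays. Mest read 1558 units in AMV and 852 in AMV+MNU.

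Tph1, the rate-limiting enzyme of serotonin synthesis outside the brain, read 692 units in parous, 1234 in AMV, 820 in parous+MNU and 1268 in AMV+MNU. It fell with a limma mean of -0.73 ± 0.11 (adjusted p = 0.00631), with both parous arrays below both AMV arrays. Msx1, a homeobox transcription factor, read 419, 716, 424 and 856 units in the same order (limma adjusted p = 0.00168). Wnt5b, a secreted Wnt ligand, fell with -0.63 and -0.74 in the pairs (limma adjusted p = 0.00796). Ltbp2, an extracellular matrix protein related to the binding proteins of latent TGF-beta, fell with -1.01 and -0.65 (limma adjusted p = 0.00426). The secretory granule gene Scg3 and the membrane dipeptidase gene Dpep1 also fell, at -0.77 and -0.80 in the untreated pair (limma adjusted p = 0.0038 and 0.00881).

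The Wnt and TGF-beta lists as wholes stayed near 0. Of 6 measured Wnt genes Porcn and Wnt5b passed limma in opposite directions, the receptor Fzd1 stood at -0.34 and the median was -0.12. Of 11 TGF-beta family genes Ltbp2 alone passed, and the median was 0.02. Tgfb3, a ligand reported higher after parity, read 873 units in parous, 734 in AMV, 1060 in parous+MNU and 632 in AMV+MNU, a difference of 0.25 without MNU and 0.75 after it (limma adjusted p = 0.109). The growth hormone and IGF list had a median of -0.22 over 10 genes, of which 7 were below 0 against 52.7% of all genes. Igf1 differed by -0.23 and its binding proteins Igfbp6 and Igfbp3 by -0.32 and -0.25. After MNU Igfbp6 and Igfbp3 stood at 0.04 and 0.51. The list then had a median of 0.03, with 5 of 8 measured genes above 0 against 47.1% of all genes. The prolactin and STAT5 list had a median of -0.12, with Stat5a at 0.14 and the feedback inhibitors Cish and Socs3 at -0.09 and -0.17.

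Skeletal muscle genes, which mark muscle taken with the gland, were below 0 for 8 of 9 measured members, against 52.7% of all genes, with a median of -0.16. Myl11, a fast muscle myosin light chain, read 275 units in parous, 556 in AMV, 401 in parous+MNU and 594 in AMV+MNU at its brightest feature (limma adjusted p = 0.00795). Another Myl11 feature differed by -0.05. The actin crosslinker Actn3 fell with -0.55 and -0.64 in the pairs (limma adjusted p = 0.0195). Creatine kinase, Ckm, differed by -0.18. Whether the amount of muscle differed between the samples was not tested. Gnb5, a G protein subunit, was 2-fold lower at 1 feature (-1.02) and differed by -0.09 at another.

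Lists of cell division and DNA damage showed no 1.5-fold difference in untreated glands. The median of 18 proliferation genes was 0.03, with the division markers Mki67 at 0.37 and Cdk1 at 0.11. The 17 of them measured in the MNU pair had a median of -0.29 there. The median of 12 DNA repair genes was 0.05. Mgmt, which removes the methyl groups that MNU leaves on guanine, read 616 units in parous and 786 in AMV, a difference of -0.35 (limma adjusted p = 0.253). The base excision enzyme Apex1 differed by -0.40 (adjusted p = 0.198). Of 13 growth arrest genes Cdkn1b, the inhibitor p27, stood highest at 0.54, with -0.33 at another feature, and none passed limma.

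Epithelial cell type lists balanced under the main normalization. The median of 11 luminal genes was -0.01 and that of 10 basal genes 0.01. With median centring the luminal list had a median of 0.165 and the basal list 0.047. Krt7, a duct keratin, read 273 units in parous, 383 in AMV, 261 in parous+MNU and 405 in AMV+MNU and fell (limma adjusted p = 0.0278). Cldn7, a tight junction gene, was at 0.62 without MNU and -0.54 after it. Among 15 adipocyte genes 10 were below 0, against 52.7% of all genes, with a median of -0.10. The other 5 were above 0, with Dgat1 at 0.54 without MNU and -0.21 after it. The array surroundings of Dgat1 had a median difference of 0.26. The fatty acid carrier Fabp4 stood at -0.54, the droplet gene Cidec at -0.45 and the insulin-responsive glucose transporter Slc2a4 at -0.37, and of these Slc2a4 passed limma (adjusted p = 0.0476). Of 9 fatty acid synthesis genes 7 were above 0, against 47.0% of all genes, with a median of 0.24, and malic enzyme, Me1, was highest at 0.44. In the MNU pair 0 of 7 were above 0, against 47.1% of all genes, and the median was -0.59.

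**Figure D3:**
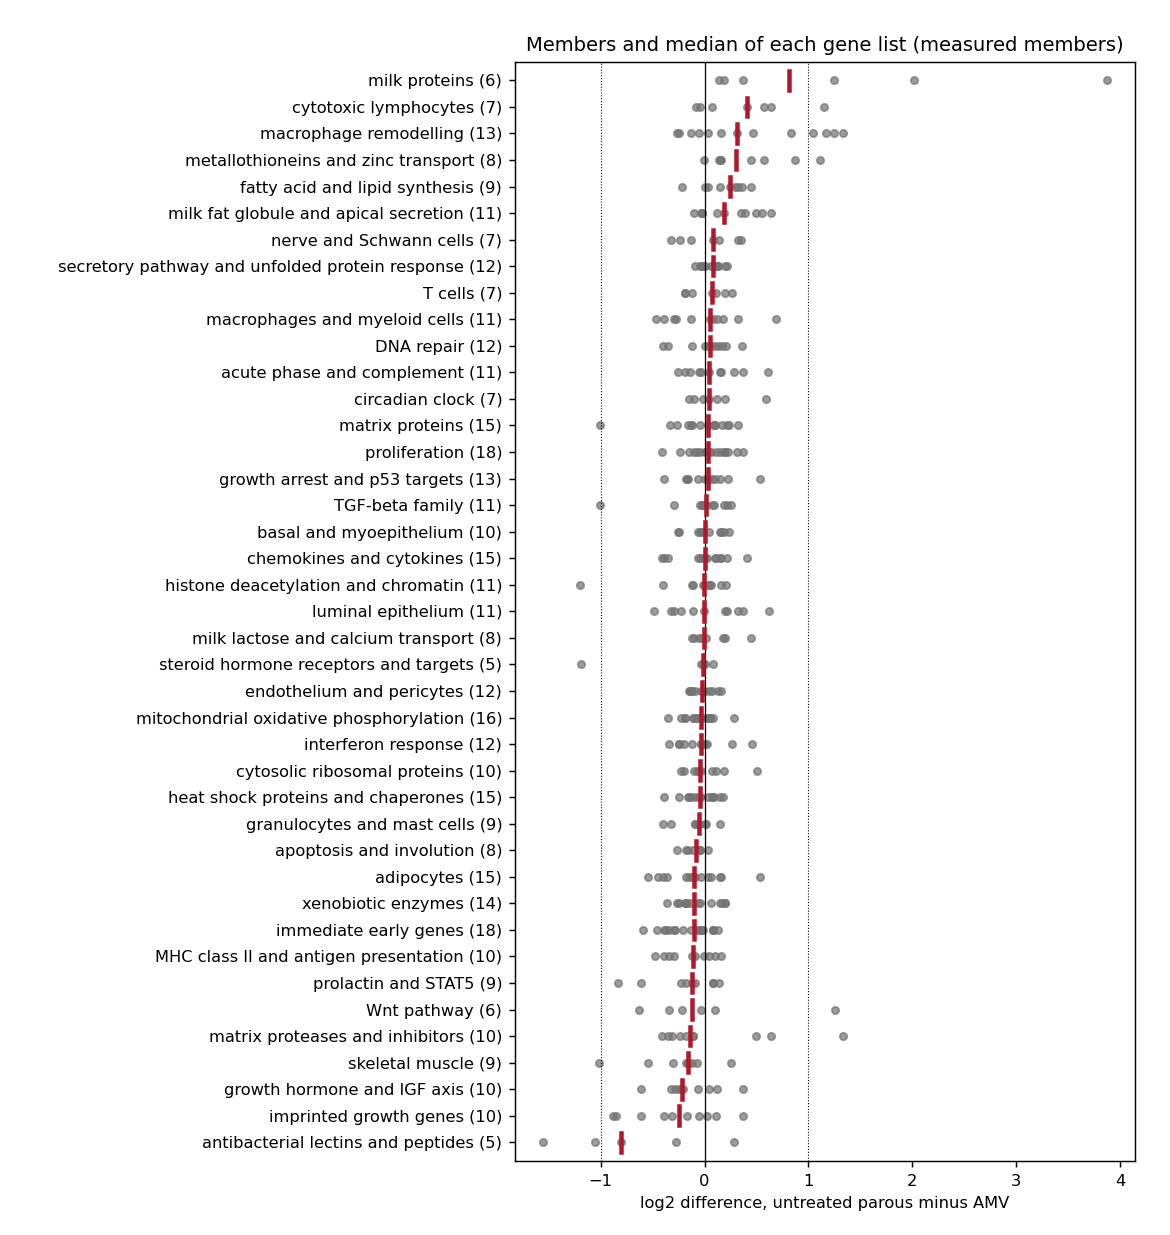
Each grey point is 1 measured gene and each red bar the median of its list on the log2 difference axis, untreated parous minus AMV, with the number of measured members in brackets, for cell type and process lists of at least 5. Of the lists drawn, milk proteins have the highest median at 0.81 and antibacterial genes the lowest at -0.80, while most medians lie near the -0.01 of all genes.

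Genes earlier reported to change with parity in rodents were also listed, with these data already known, so their direction is no independent evidence. Of 11 measured genes reported higher all were above 0, against 47.0% of all genes, and the median was 0.87. Of the 10 tested 6 rose, against 0.752% of all genes tested. They were Csn1s2a, Wap, Mt2A, Mt1, Jchain and Muc1. Of 8 measured genes reported lower 6 were below 0, against 52.7% of all genes, with a median of -0.17. Of the 6 tested 1 fell, Igf2, against 0.483% of all genes tested. The growth factor Ptn stood at -0.23, the leptin gene Lep at -0.09 and the growth hormone receptor Ghr at 0.12.

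Between 1.5-fold and 2-fold, 18 further genes rose and 8 fell. Besides those described, the genes that rose included Ltc4s, which makes leukotriene C4 (5608 units in parous, 2990 in AMV, 5720 in parous+MNU and 3520 in AMV+MNU), and the stromal protease Mmp3 at 0.64. Dbp, an output gene of the circadian clock, read 3053 units in parous, 2032 in AMV, 2938 in parous+MNU and 965 in AMV+MNU. Its AMV arrays differed far more than its parous arrays, which gave 0.59 without MNU and 1.61 after it (limma adjusted p = 0.00881). The other clock genes Per1 and Per2 differed by -0.10 and 0.04 in the untreated pair. Mto1 passed limma at its brightest feature with 0.85, while its other features stood at 0.11 and -0.09.

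Differences were also set beside position on the array. Positions were read from the feature numbers as 105 rows of 215, an assumed layout. The spacing of 215 was taken because features that far apart in number had the highest rank correlation of their untreated differences, 0.244, of all spacings from 20 to 1200. Where the median difference of the surrounding 3 rows by 31 columns exceeded 0.2, 179 features of 103 genes had a median difference of 0.34 in the untreated pair, which chose them, and -0.02 in the MNU pair, which did not. Of these features 122 lay in the last 3 rows. These positions held 21 of the 74 genes at least 1.5-fold higher and 0 of the 27 lower, counts that the choice of positions by the untreated difference fixes in direction. Of the genes 1.5-fold to 2-fold higher there, 6 of 18 (33.3%) had the same direction in the MNU pair and 1, Vwa1, passed limma. Elsewhere 30 of 34 (88.2%) had the same direction and 17 passed. Among the 2-fold genes Pomp alone lay at such a position, with 1.08 as measured and 0.60 after the local median was subtracted. What raised the signal there was not tested.

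**Figure D4:**
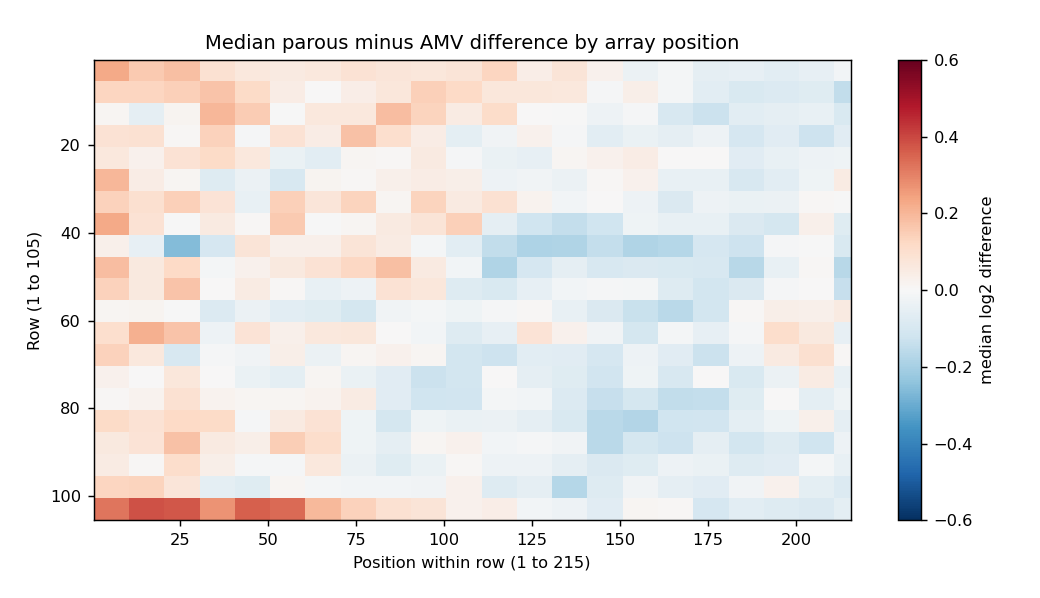
Median log2 difference, parous minus AMV, of kept features in blocks of the assumed layout, with the place within a row across and the row number downwards, red for parous higher. The darkest blocks lie in the last rows at the left, where 122 of the 179 features at raised positions were found.

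In the MNU pair the 2-fold genes kept their direction wherever both values existed, in 17 of 17 higher and 6 of 6 lower genes, against 55.5% of all 5587 genes. Of these, 14 of the 17 and 5 of the 6 were at least 1.5-fold different there too, where 0.879% of genes were that much higher and 1.42% lower. Limma, which includes both pairs, passed 16 of the 17 and all 6. Over the table, 33 genes were at least 1.5-fold different in both pairs, and 0 of them in opposite directions. The sizes were not the same. The 17 higher genes had a median of 0.84 after MNU, and Csn1s2a and Wap each had about 1 log2 unit or more less. Treatment, the 3 weeks of added age and the larger number of blanks on the MNU arrays cannot be told apart as the source of such differences.

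**Figure D5:**
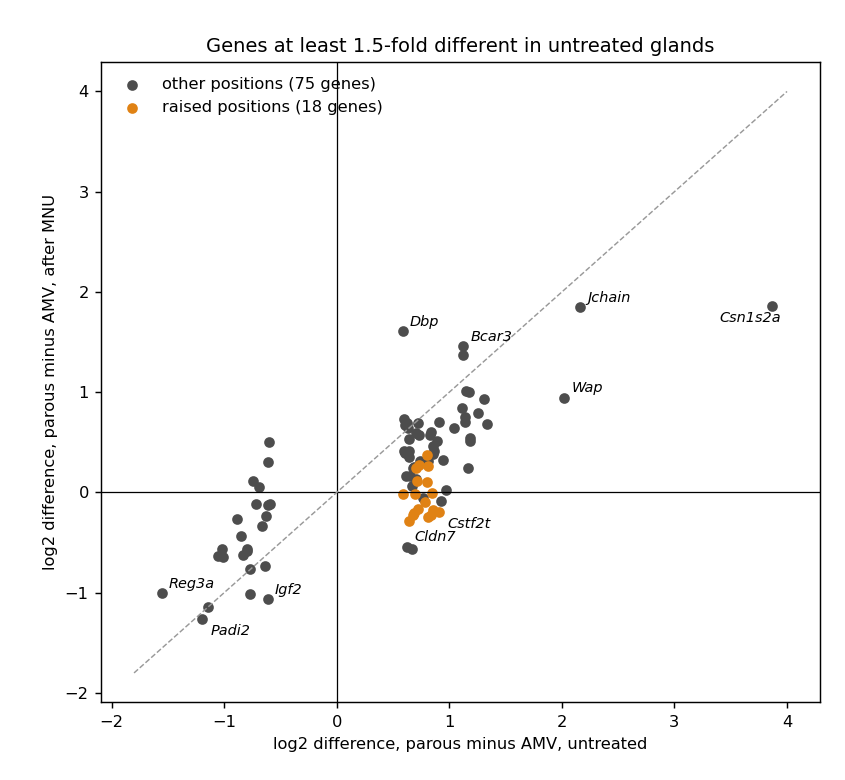
Genes at least 1.5-fold different in untreated glands with a value in both pairs, untreated log2 difference across and the difference after MNU upwards, with a dashed line of equality. Genes at raised array positions (orange, 18 genes) gather between 0.5 and 1 across and near 0 upwards, whereas Jchain, Csn1s2a and Wap are high in both pairs.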

How the data were processed

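Total RNA of the mammary gland was measured on 4 arrays, 1 for each group of 5 rats. The values the authors deposited are linear intensity values of 3 significant digits, as the table itself shows. The sources used here name neither the platform and image processing nor the pooling of animals, and do not say what a blank stands for. Of 20500 features 12750 carried 1 symbol, 12720 of them matched by gene identifier to names of GRCr8 in RefSeq, 7745 were unnamed and 5 had several. No column of another sample was present.

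Array medians differed by up to 1.33 times, over the set limit of 1.1, so arrays were quantile-normalized on features with values on all 4 arrays. No pseudocount was added. Values were raised to the pooled 40th percentile and put on log2. The filter was the pooled 50th percentile, which left 11113 features, and the brightest kept feature stood for a gene. Blanks were not filled. Limma 3.58.1 in R 4.3.3 (lmFit, eBayes, Benjamini-Hochberg over 5587 genes) borrowed 11.4 prior degrees of freedom, and its p-values measure only the spread among these 4 arrays. Figures used matplotlib 3.10.9 in Python 3.11.15. The procedure was tested on simulated data.

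Genes were named if at least 2-fold different, if 1.5-fold to 2-fold different and past limma, or by rank within a list (up to 6 a list, and all members of the lists of milk proteins, muscle and genes reported to change with parity). List members below that rank were chosen after their values were seen. The comparison, lists and rules were chosen with earlier results of these data known. The alternatives on array position were added after seeing the data. The number of arrays limits the precision.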

Additional observations from a re-analysis of the deposited data

How the results depend on the processing

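The count of 27 genes at least 2-fold different became 101 at a 1.5-fold threshold, 3 at 3-fold and 43 when the 1st percentile of each array was subtracted as background. Under the other alternatives it lay between 22 and 28, with 22 to 27 genes shared. Quantile normalization over all values gave 82.6% higher genes against 70.4%, subtraction of the local median 81.8%. Genes lost were those near the threshold, and Porcn (0.62) and Myl11 (-0.53) with the mean of features, Gnb5 (-0.09) with the same, Myl11 (-0.05) with the strict filter, which did not keep Padi2 and Msln, and Pomp (0.60) without its local median. The limma count of 69 was 112 with median centring, 115 with quantile normalization over all values, 127 with the strict filter, 37 with the mean of features, 92 without raised positions, 48 as deposited (27.1% higher against 60.9%) and 0 without a filter, where 738 genes had an unadjusted limma p under 0.05, against 553 with it. The median centring split was 49.1% higher. Signs were compared for genes at least 2-fold different and for those 1.5-fold to 2-fold different and past limma, and none changed. Genes named by rank within a list were not compared singly. The median of the luminal markers Krt19, Epcam and Cdh1 went from -0.01 to 0.165 with median centring, as did that of the luminal list. The limma calls turned from mostly higher to mostly lower on intensities as deposited and to nearly even with median centring. Of recomputed list medians 632 of 659 moved by less than the robust SD over genes. So did 546 of 577 recomputed differences of the genes whose signs were compared. The cause of the other moves was not tested. With MNU as a term, limma compared parous with AMV within the untreated and the MNU pair. No pairing of replicates was possible because each group has 1 array and the labels carry no replicate numbers. Dim genes near the floor of 178 units have understated differences.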

Other observations

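Further lists are given by their counts in untreated glands, where 52.7% of all genes were below 0. Of 18 immediate early genes, which growth factors and stress switch on quickly, 14 were below 0 with a median of -0.10. Ccn1 stood at -0.59, Nr4a1 at -0.46 and Jun at -0.39, and none passed limma. In the MNU pair 10 of 17 were above 0. Of 10 genes of MHC class II and antigen presentation 7 were below 0 with a median of -0.11. The class II chain RT1-Da stood at -0.48 and the invariant chain Cd74 at -0.39, and none of the 6 tested passed limma. Complement C3 read 301 units in parous and 197 in AMV, a difference of 0.61 (limma adjusted p = 0.0578). C3 exceeded the filter of 216 units on the parous arrays alone, so its direction follows from the filter.

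Features without a single symbol numbered 3868 with values on both untreated arrays, of which 10 were at least 2-fold higher in the parous gland and 1 was lower. Over all 10806 kept features with both values, 30 were higher and 9 lower. On named kept features, 90 were blank in parous alone and 62 in AMV alone, against 171 and 140 over all features. In 8 named kept features the blank fell on both parous arrays with values on both AMV arrays, and in 7, among them Pck1 and Rgs2, the reverse.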
